A study of Mus musculus with 4 samples.

Results

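The interval around Dnpep is the gene-dense end of the captured region of chromosome 1 in mouse embryonic stem cells (mESCs). It runs from chr1:75123201-75654400 in mouse genome build mm9 (NCBIM37) and spans 531.2 kb. Members were all bin pairs whose bins both lie between these positions, which gave 83 bins of 6.4 kb and 3486 bin pairs out of the 155961 pairs of the 558 captured bins on this chromosome. The remaining 475 bins, all upstream, served as the rest of the captured region. Upstream means towards lower coordinates throughout, whatever the strand of a gene.

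Contacts were measured by tiled Capture-C, in which crosslinked chromatin is cut, religated and enriched for chosen regions before paired-end sequencing. There were 4 libraries from E14 mESCs, 1 per group, so no difference below has a replicate check and errors are Poisson counting errors of the reads behind each value. All lines came from 1 parental line in which a pair of endogenous CTCF sites had been deleted. All carried a TetO and a LacO operator array on 1 allele of chromosome 15, the fluorescent repressors TetR-tdTomato and LacI-eGFP, and a HaloTag-FKBP degron on both copies of Rad21. Each line was 1 clone, grown in serum with leukemia inhibitory factor and inhibitors of MEK and GSK3. Line 1A2 had no CTCF cassettes next to the arrays. Line 1F4 also lacked the cassettes and kept the promoters of resistance genes beside the arrays. Line 1B1 carried a cassette of 3 CTCF sites (3xCTCF) next to each array, in convergent orientation. The fourth library came from 1B1 cells given 500 nM dTAG-13 for 2 h, which degrades the tagged RAD21, and is called 1B1 minus cohesin. The arrays lie outside the interval, and the insertion sites of the repressor genes are not given in the sources used here. The comparison of 1B1 minus cohesin with 1B1 asked how the contacts of this gene-dense sequence depend on cohesin, and the 3 untreated lines gave the spread between libraries.

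Cohesin is a ring-shaped complex, with RAD21 as the subunit that closes the ring, and is thought to extrude loops of chromatin. CTCF binds DNA in a defined orientation and halts extruding cohesin, which is why domain borders and loop anchors often hold CTCF sites that point at each other. Active promoters and gene bodies can also separate or join neighbouring stretches of chromatin. The insulation value used here is low where few contacts cross a position and high in the middle of a domain.

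The interval held 23 protein-coding genes, all with their start inside it, among 31 annotated genes that included 5 pseudogenes and 3 processed transcripts. This came to 4.33 coding starts per 100 kb against 1.38 in the rest of the captured region, and 22.9% of bins held a start against 7.58%. In order the genes were Slc23a3, 1810031K17Rik, Fam134a, Zfand2b, Abcb6, Atg9a, Glb1l, Stk16, Tuba4a, Dnajb2, Ptprn, Resp18, Dnpep, Des, Speg, Gmppa, Accn4, Chpf, Tmem198, Obsl1, Inha, Stk11ip and Slc4a3. They occupied 19 promoter bins, of which 4 held 2 starts. Genes with a role in striated muscle (Des, the intermediate filament desmin; Speg, a muscle kinase; Obsl1, a cytoskeletal protein related to obscurin) lay among genes of nervous and endocrine tissue (Ptprn, a phosphatase-like protein of secretory granules; Inha, the inhibin alpha subunit; Slc4a3, an anion exchanger) and genes used in most cells (Dnpep, an aspartyl aminopeptidase; Atg9a, a membrane protein of autophagy; Tuba4a, an alpha-tubulin). The last 95.7 kb, 14 bins wholly past the end of Slc4a3, held no protein-coding gene and ended at the edge of the captured region. Gene activity was not measured here.

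The sequence of the interval was read from NCBIM37 because CTCF motifs and promoters are the features that the contact maps can be set against. The CTCF core motif, searched by name as a pattern of 12 bases on both strands, occurred 5 times in the interval (3 forward, 2 reverse), in 6.02% of its bins against 4.66% of all captured bins. None of the 19 promoter bins held it. All 5 sites are shown with 9 bases on either side, 5′ to 3′ on the strand of the motif, with the core in capitals.

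Chpf coding exon, chr1:75474143-75474172, forward strand: cgtgttgctCCAGCAGGTGGCgcagcgcca
Obsl1 intron, chr1:75496195-75496224, forward strand: tcacccgatCCAGCAGAGGGCgtatatgca
Slc4a3 UTR, chr1:75556242-75556271, reverse strand: caaaaaccaCCACCAGAGGGCtacacacgg
between genes, first site, chr1:75594396-75594425, reverse strand: aacactctgCCACTAGGGGGCagcatatcc
between genes, second site, chr1:75650306-75650335, forward strand: ttcctttggCCACCAGGTGGCgccatcaca

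The Chpf site lies in the bin of the weaker insulation minimum described below, and the Obsl1, Slc4a3 and first intergenic sites lie in or next to the anchors of 2 focal contacts. The fifth lies near the edge of the captured region. A match is a description of sequence and not a measured binding site. The pattern allowed set alternatives at some positions and no other mismatch, so a bin without a match may still hold a CTCF site.

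The promoters of Dnpep and Chpf are the starts nearest to the 2 insulation minima, 4.19 kb and 4.05 kb away. They are shown with the bases before the start in lower case and the 50 bases from the annotated start onward in capitals.

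Dnpep promoter, chr1:75314163-75314462, reverse strand: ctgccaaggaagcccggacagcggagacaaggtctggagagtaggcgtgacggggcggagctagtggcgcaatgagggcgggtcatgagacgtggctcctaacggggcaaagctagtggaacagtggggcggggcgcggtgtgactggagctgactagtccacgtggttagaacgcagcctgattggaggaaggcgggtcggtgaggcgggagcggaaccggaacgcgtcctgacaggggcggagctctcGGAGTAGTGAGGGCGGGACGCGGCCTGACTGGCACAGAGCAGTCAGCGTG
Chpf promoter, chr1:75475997-75476296, reverse strand: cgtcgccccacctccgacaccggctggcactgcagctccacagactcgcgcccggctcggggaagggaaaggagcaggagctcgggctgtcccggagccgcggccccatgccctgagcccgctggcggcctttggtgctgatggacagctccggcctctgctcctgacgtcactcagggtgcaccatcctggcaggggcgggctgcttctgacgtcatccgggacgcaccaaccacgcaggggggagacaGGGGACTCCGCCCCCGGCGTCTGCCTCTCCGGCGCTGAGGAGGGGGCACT

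Both were rich in CpG, with 65.7% GC and 27 CpG in the 300 bases of Dnpep and 71.7% GC and 26 CpG in those of Chpf. A CpG observed/expected ratio of 0.6 or more was found at 12 of the 23 promoters of the interval and at 23 of the 42 upstream. Median GC over bins was 49.3% in the interval and 44.5% upstream, and 51.4% in promoter bins against 47.8% in the other bins of the interval. Bins held a median of 16 cut sites of MboI (GATC) in the interval and 16 in the rest of the captured region.

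The interval took 12.1%, 12.3%, 11.7% and 12.8% of the captured chromosome 1 reads (1A2, 1F4, 1B1 and 1B1 minus cohesin), which was 198956, 259405, 196142 and 235767 read pairs. Pairs at least 3 bins (19.2 kb) apart held 81142, 101458, 85613 and 79273 of these, with a median of 15, 18, 16.5 and 13 reads per bin pair. No bin of the interval lacked a value in any library. Over the interval the maps of the 3 untreated lines correlated with each other at r = 0.905 (1A2 and 1F4), 0.902 (1A2 and 1B1) and 0.914 (1F4 and 1B1), computed on log2 observed/expected over 2716 overlapping windows between 32 and 384 kb apart. The map of 1B1 minus cohesin correlated with them at 0.557 (1B1), 0.590 (1A2) and 0.540 (1F4). The treated map therefore stood apart from all 3 untreated maps, although windows share reads and are not replicates.

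A single bin pair stood apart in every library and touched some of the values below. The bin chr1:75488001-75494400 inside Obsl1 and the bin chr1:75507201-75513600 between Inha and Stk11ip, 19.2 kb apart, had an observed/expected of 11.1 ± 0.31, 10.3 ± 0.26, 11.6 ± 0.31 and 9.39 ± 0.24 with 1298, 1535, 1382 and 1526 reads (1A2, 1F4, 1B1 and 1B1 minus cohesin). The highest of all other pairs at this separation on the captured chromosome reached 3.38, 2.77, 3.43 and 2.59, and the median of the 8 neighbouring pairs lay between 0.988 and 1.21. The second bin contacted itself at only 0.297, 0.361, 0.272 and 0.343 of the expected value. The sequences of these bins share 476 words of 20 bases on the same strand, the most of all 543 bin pairs at this separation, of which 19.7% shared 10 or more. The shared words span chr1:75490457-75494329 within Obsl1 and chr1:75508811-75512537, a stretch that holds the pseudogene Gm15181. Whether this shared sequence has a part in the high value was not tested. The pair lies in the insulation squares of the bins at 75494401 and 75500801. Insulation of these bins, the promoter-pair ratio and contact inside the last stretch are given with and without it. It also enters mean contact between 12.8 and 25.6 kb and the decay with separation, which are given with it only.

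In the untreated lines the interval was divided at 2 positions, next to the start of Dnpep and between Accn4 and Chpf, and the highest insulation lay in the body of Speg. Without cohesin the dip at Dnpep was shallower, the peaks on either side were lower, the low inside Ptprn was deeper, and insulation at Stk11ip went from above 0 to below 0. Insulation was the log2 mean balanced contact in squares of 10 by 10 bins (64 kb) across a bin, relative to the mean over the captured region, and 63 bins had their whole square inside the interval. Squares of neighbouring bins overlap, so neighbouring values are not independent.

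The lowest insulation was −0.44 in 1A2 and −0.47 in 1F4, in the bin chr1:75315201-75321600 just beside the start of Dnpep. In 1B1 the lowest value, −0.36, lay in the adjacent bin with the start itself, chr1:75308801-75315200. In 1B1 minus cohesin it was −0.41 and lay elsewhere, at chr1:75244801-75251200 inside Ptprn. The highest value was at chr1:75398401-75404800 within Speg in all 4 libraries, 0.76, 0.79, 0.72 and 0.43 in 1A2, 1F4, 1B1 and 1B1 minus cohesin. The treated library thus had the lowest peak, and its range over the bins was also the narrowest, 0.84 against 1.2, 1.26 and 1.08. The SD over bins was 0.19 without cohesin and 0.32, 0.35 and 0.31 in the untreated lines, with counting errors between 0.016 and 0.034 for single bins.

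**Figure D1:**
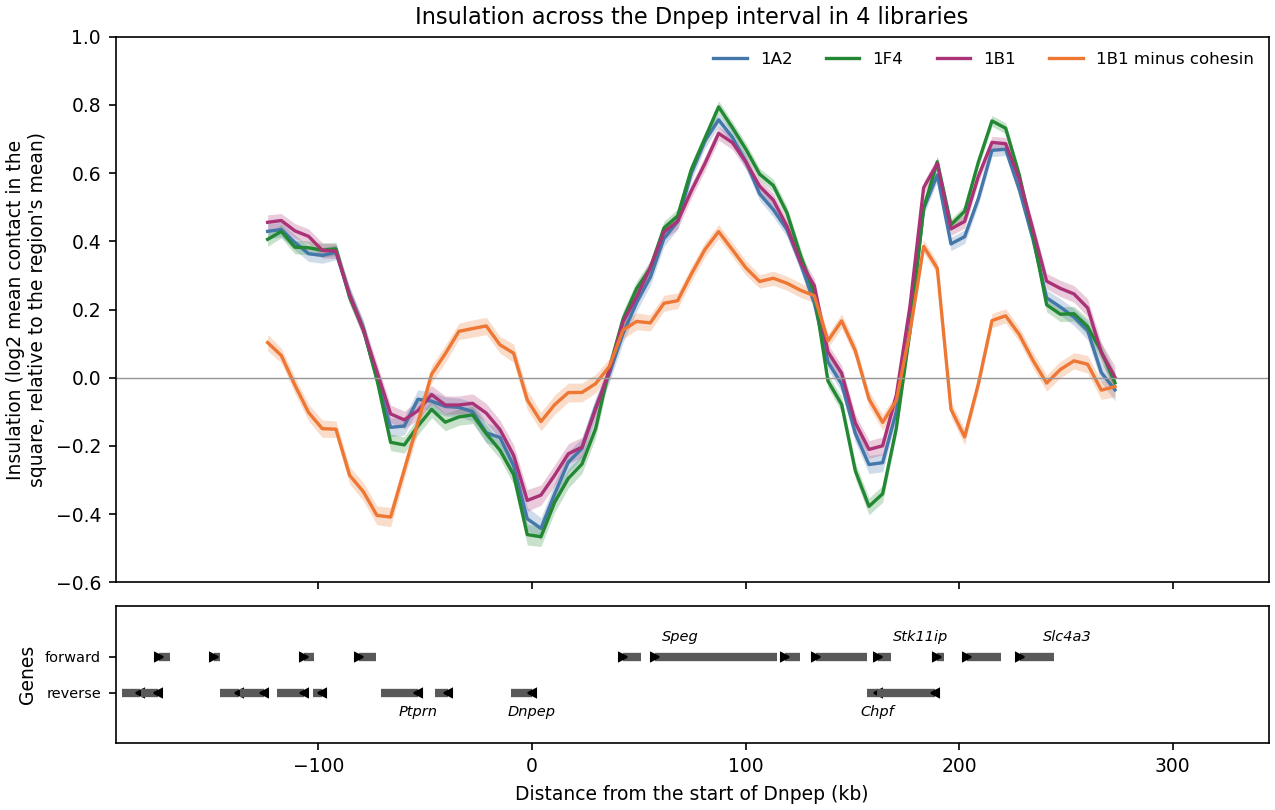
Insulation of each bin (log2 mean contact in its square, relative to the mean of the captured region) against distance from the start of Dnpep in kb, with lines for the 4 libraries, bands for the counting error, and protein-coding genes with their starts below. The 3 untreated lines reach their lowest values beside the start of Dnpep, from −0.47 to −0.36, whereas 1B1 minus cohesin is lowest inside Ptprn at −0.41 and is also below 0 at Stk11ip.

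Minima were local low points from which insulation rose by 0.2 or more in both directions within 15 bins. There were 2 in the mean of 1A2 and 1F4, 2 in 1B1 and 4 in 1B1 minus cohesin. These numbers depended on the rule. Squares of 5 bins gave 4 in the untreated mean, and the 4 of the treated library became 1 with squares of 15 bins and 2 with a depth of 0.4, with those at Dnpep and Stk11ip lost in both. At the minimum beside Dnpep insulation was −0.44 ± 0.03, −0.47 ± 0.03, −0.34 ± 0.03 and −0.13 ± 0.03, a rise of 0.22 ± 0.04 from 1B1 to 1B1 minus cohesin. At the minimum in the bin chr1:75468801-75475200, which holds the ends of Accn4, an acid-sensing ion channel gene, and of Chpf, a chondroitin polymerizing factor, it was −0.25 ± 0.03, −0.38 ± 0.02, −0.21 ± 0.03 and −0.06 ± 0.02, a rise of 0.15 ± 0.03. The treated library had the highest value of the 4 at both positions, which is the most contact in the 64 kb square relative to the captured mean.

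The additional minima of 1B1 minus cohesin were found after its map had been seen and are given as a description. Inside Ptprn, at chr1:75244801-75251200, insulation was −0.15, −0.19 and −0.11 in 1A2, 1F4 and 1B1 and −0.41 without cohesin, a fall of 0.30 ± 0.04. With squares of 5 bins the mean of 1A2 and 1F4 also had a minimum in this bin, at −0.49, so the low was present in the untreated lines and passed the depth rule at 10 bins only in the treated library. In the bin with the start of Stk11ip, whose product binds the kinase Stk11, it was 0.41, 0.49 and 0.46 in the untreated lines and −0.17 without cohesin. The fall was the largest of the 63 bins. Just upstream lie the bins whose squares take in the pair that stood apart. With that pair, insulation was 0.50, 0.50, 0.56 and 0.39 in the bin at 75494401 and 0.59, 0.63, 0.63 and 0.32 in the bin of Obsl1 and Inha at 75500801. With the pair set to the mean of its separation it was 0.18, 0.20, 0.24 and 0.03 in the former and 0.30, 0.36, 0.33 and −0.06 in the latter. The values of the untreated lines then increased from bin to bin up to Stk11ip and on to the bin at 75526401, so they had no low there, whereas the treated library kept its minimum at Stk11ip. The minimum near Chpf was found 1 bin downstream of its untreated position, at the starts of Chpf and Tmem198, where insulation was −0.25, −0.34, −0.20 and −0.13.

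Of the 63 bins, 29 (46.0%) fell and 9 (14.3%) rose by 0.2 or more from 1B1 to 1B1 minus cohesin, while over the 532 such bins of the captured region 20.1% fell and 24.2% rose. Against 1A2, 27 bins fell and 10 rose, beside 18.6% and 24.4% of captured bins, and against 1F4, 29 fell and 15 rose, beside 20.7% and 28.2%, so the number of rises depended on the untreated line. Without balancing, 18 bins (28.6%) fell and 15 (23.8%) rose against 1B1, beside 17.7% and 23.7% of captured bins, and the median change was −0.057, so the excess of falls was smaller there. The median change from 1B1 was −0.17 in the interval and 0.04 in the rest of the captured region. Among the untreated lines no bin of the interval changed by 0.2 or more in any of the 3 comparisons. For 1F4 and for 1B1 against 1A2, 0.376% of captured bins did so in each. The bins that changed lay in 5 runs. Insulation fell over 10 bins from the start of Atg9a into Ptprn (−0.53 to −0.30), over 9 bins inside Speg (−0.31 to −0.21) and over 10 bins from the start of Obsl1 to just past Slc4a3 (−0.63 to −0.24). With the pair that stood apart set to the mean of its separation, 30 bins (47.6%) fell and 9 rose, and the last of these runs took in the bin at 75494401 and held 11 bins. Insulation rose over 8 bins around Dnpep (0.21 to 0.30) and in 1 bin inside Accn4 (0.21).

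Of the 15 promoter bins with a full square, 7 (46.7%) fell, 1 rose and 12 had a change below 0. Over all 63 bins 46.0% fell and 44 had a change below 0, so on the balanced maps the share of falls at promoters was near that of the interval. The median change on these maps was −0.17 in promoter bins and −0.17 in the other bins of the interval. Without balancing 7 promoter bins (46.7%) again fell, beside 28.6% of the interval and 22.9% of its other bins. The nearness of the shares thus depended on the balancing, and the difference between promoter bins and other bins was not tested. The largest falls were at Stk11ip (−0.63 ± 0.03), at Tuba4a (−0.52 ± 0.03) and at the shared bin of Glb1l, a galactosidase-like protein, and Stk16, a membrane-associated kinase (−0.52 ± 0.03). At Tuba4a insulation was 0.36, 0.37 and 0.37 in the untreated lines and −0.15 without cohesin, so the treated value lay far outside the range of the others. Against 1B1 the Dnpep bin had the only rise past 0.2, from −0.36 in 1B1 to −0.06 (0.29 ± 0.04), with −0.41 and −0.46 in 1A2 and 1F4. With squares of 5 bins its change was 0.15, short of 0.2, and the only promoter bin past 0.2 was that of Chpf and Tmem198 (0.21). The next rises were 0.15 ± 0.04 at Resp18, a secretory protein of endocrine cells, and 0.07 ± 0.04 at Chpf and Tmem198. Against 1A2 Dnpep was again the only promoter bin that rose by 0.2 or more (0.35 ± 0.04), but against 1F4 there were 3, Dnpep (0.39 ± 0.04), Chpf and Tmem198 (0.21 ± 0.03) and Resp18 (0.20 ± 0.04). The Obsl1 and Inha bin, which takes in the pair that stood apart, changed from 0.63 to 0.32 (−0.31 ± 0.03), and from 0.33 to −0.06 (−0.39) with that pair set to the mean of its separation.

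By gene group, the 8 bins with broadly expressed genes had a median change of −0.41, with 5 falls and 1 rise. The 6 bins of nervous and endocrine genes had a median of −0.03 with 2 falls, at Slc4a3 (−0.46) and in the bin that Inha shares with Obsl1, and the 3 bins of muscle genes had a median of −0.16 with 1 fall, in that same shared bin. Each group has few bins, and over the interval 46.0% of bins fell and 14.3% rose. The share of falls was above that of the interval for broadly expressed genes (5 of 8). It was below that share for nervous and endocrine genes (2 of 6) and for muscle genes (1 of 3). Differences between the groups were not tested. Des changed by −0.02 ± 0.04 and Ptprn by −0.03 ± 0.04. The groups are spread unevenly along the interval, and 5 of the broadly expressed genes lie together in the run of bins from Atg9a to Dnajb2. Squares overlap along that run, so its falls are not independent. The bin of Chpf and Tmem198 was counted both among broadly expressed and among nervous and endocrine genes.

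**Figure D2:**
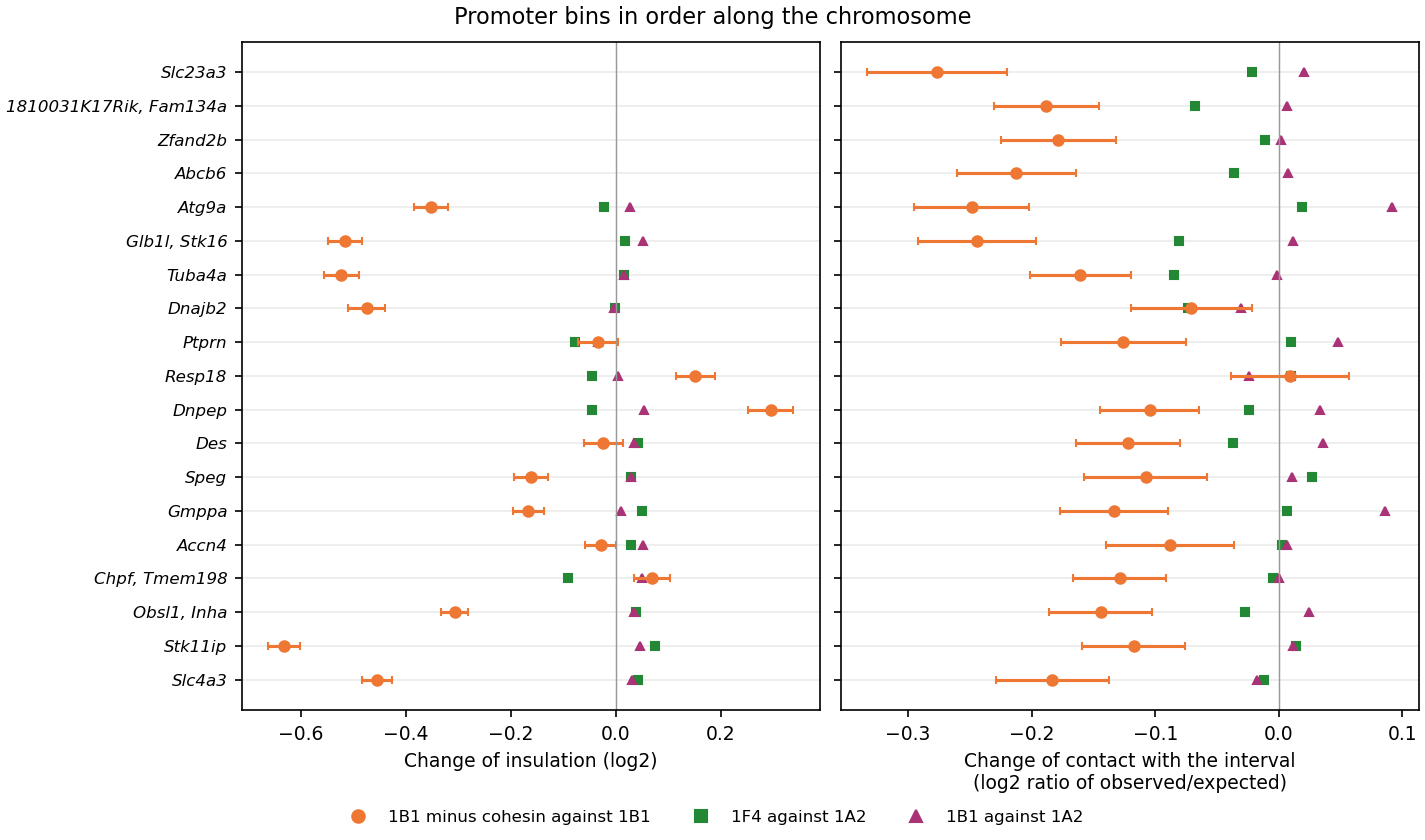
Change of insulation (left, log2) and of contact with the rest of the interval (right, log2 ratio of observed/expected) for each promoter bin in chromosomal order, for 1B1 minus cohesin against 1B1 (circles, with counting errors) and for 1F4 and 1B1 against 1A2 (squares and triangles, without errors). The first 4 bins have no full insulation square, and the Dnpep bin is the only one with an insulation rise past 0.2 against 1B1.

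The contacts of promoter bins with the rest of the interval were lower without cohesin at 18 of the 19 promoter bins, with a median change of −0.13. Contact was the observed/expected with all bins of the interval at least 19.2 kb away, where expected is the mean at the same separation over the captured region. The median log2 change from 1B1 to 1B1 minus cohesin was −0.13 over promoter bins and −0.14 over the other 64 bins, of which 62 were below 0. Among the 19 promoter bins 4 fell (21.1%) and 0 rose by 0.2 or more, and among the other 64 bins 19 fell (29.7%) and 1 rose. This difference between bins with and without a start was not tested. Over the captured region, with each bin measured against all bins within 82 bins of it, 3.44% fell and 1.99% rose. Measured in that way 15 bins of the interval fell and 1 rose, and none of them was a promoter bin.

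The Slc23a3 bin, with the start of a member of the ascorbate transporter family, had 1.29 ± 0.03, 1.27 ± 0.03, 1.3 ± 0.03 and 1.08 ± 0.03 in 1A2, 1F4, 1B1 and 1B1 minus cohesin, a change of −0.28 ± 0.06. Atg9a followed with 1.08, 1.10, 1.15 and 0.971 (−0.25 ± 0.05), then Glb1l and Stk16 with 1.17, 1.11, 1.18 and 0.995 (−0.24 ± 0.05). At each of these the treated library was below all 3 untreated ones. These bins lie towards the upstream edge, so contact inside the interval covers mainly their downstream side. Measured against all bins within 82 bins, their changes were smaller, −0.07 (Slc23a3), −0.12 (Atg9a) and −0.14 (Glb1l and Stk16). At the other end were Resp18 with 1.13, 1.13, 1.11 and 1.11 (0.01 ± 0.05), Dnajb2, a co-chaperone, with 1.06, 1.00, 1.04 and 0.985 (−0.07 ± 0.05), and Accn4 with 1.13, 1.13, 1.13 and 1.06 (−0.09 ± 0.05). These 3 changes were no larger than the largest between untreated lines over the promoter bins, 0.09. Within 82 bins they were −0.11 (Resp18), −0.06 (Dnajb2) and −0.09 (Accn4), so the order of the promoter bins depended on the reach.

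Pairs of promoter bins contacted each other more than other pairs of the interval in all 4 libraries, and this excess was about as large without cohesin as with it. The 163 pairs with a start in both bins had 1.31 ± 0.02, 1.26 ± 0.01, 1.33 ± 0.02 and 1.18 ± 0.02 in 1A2, 1F4, 1B1 and 1B1 minus cohesin. The 1920 pairs without any start had 1.18, 1.17, 1.19 and 1.08, and the 1157 pairs with a start in 1 bin had 1.16, 1.15, 1.17 and 1.06. All classes were above 1 and lowest in the treated library. The log2 ratio of both to none was 0.15, 0.11, 0.16 and 0.13 (each ± 0.02), and 0.18, 0.14, 0.18 and 0.17 with the pair that stood apart set to the mean of its separation. Its change from 1B1 to 1B1 minus cohesin was −0.02 ± 0.03, within the −0.04 to 0.05 found between untreated lines. In the rest of the captured region, up to 82 bins apart, the ratio was 0.32, 0.36, 0.29 and 0.27. Without the balancing step the ratio in the interval was 0.57 to 0.62, so its size rests on the balancing. It was lower with the starts of all annotated genes (0.098, 0.061, 0.11 and 0.096) and without the last 10 bins of the interval (0.11, 0.060, 0.12 and 0.10). For pairs at least 8 bins apart it was 0.15, 0.060, 0.16 and 0.18, so in 1F4 it was close to 0.06 under each of these 3 settings.

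Each class lost a like amount of contact from 1B1 to 1B1 minus cohesin, −0.17 ± 0.03 for both, −0.14 ± 0.01 for 1 and −0.15 ± 0.01 for none. The same values upstream were 0.00 ± 0.03, −0.03 ± 0.01 and 0.03 (counting error 0.0037).

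Among promoter pairs, the strongest joined Des with Accn4, Slc23a3 with Dnpep and Speg with Accn4, in windows of 3 by 3 bins. The window of Des and Accn4, 89.6 kb apart, had 2.18 ± 0.12, 2.02 ± 0.10, 2.01 ± 0.12 and 1.59 ± 0.11 in 1A2, 1F4, 1B1 and 1B1 minus cohesin (−0.33 ± 0.13). The window of Speg and Accn4, 76.8 kb apart, had 1.86 ± 0.10, 2.05 ± 0.09, 1.82 ± 0.09 and 1.40 ± 0.08 (−0.37 ± 0.11). Both were lowest without cohesin and still above the expected value. The promoter pairs were chosen for high mean contact in 1A2 and 1F4, so a treated value below these lines is partly set by the choice.

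The start of Dnpep had its strongest contacts on both sides, with the first genes of the interval and with the second minimum. Its 5 strongest partners were the Slc23a3 bin and the bin at 75148801 between Fam134a and Zfand2b on one side, and 3 adjacent bins from 75456001 to 75475200 in Accn4 and Chpf on the other. With the bin at 75468801, 160 kb away and itself the second minimum, contact was 2.10 ± 0.12, 2.17 ± 0.11, 1.86 ± 0.11 and 1.68 ± 0.12, and the change of −0.15 ± 0.13 was smaller than the difference between 1F4 and 1B1. With the Slc23a3 bin it was 1.88 ± 0.14, 2.18 ± 0.14, 2.07 ± 0.13 and 1.52 ± 0.14 (−0.44 ± 0.16). With the bin at 75148801 it was 2.00 ± 0.16, 1.92 ± 0.14, 1.81 ± 0.15 and 1.24 ± 0.14 (−0.55 ± 0.20). The point estimate was lowest without cohesin for all 5, and the 2 upstream partners and the bin at 75456001 (−0.43 ± 0.16) changed by more than the untreated lines differed. The partners were chosen for high mean contact in 1A2 and 1F4, so a treated value below these lines is partly set by the choice. Neither 1B1 nor 1B1 minus cohesin took part in the choice. Windows of the 3 adjacent bins share reads, so the 5 are not independent.

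Over equal reach of 185.6 kb on either side, the upstream contact of the Dnpep bin was 1.40 in 1A2 and in 1F4, 1.39 in 1B1 and 1.37 in 1B1 minus cohesin, and its downstream contact was 0.971, 1.01, 1.10 and 0.967. The log2 ratio of downstream to upstream was −0.53, −0.46, −0.34 and −0.50, each ± 0.06. The bin thus had more contact with its upstream side in all 4 libraries, and the treated value lay inside the untreated range.

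The interval held 3 focal contacts called in 1A2 and 1F4, none of them centred on a pair of promoter bins, and all 3 were weaker without cohesin. A focal contact was a window of 3 by 3 bins at least 1.5 times the mean of the ring around it in both 1A2 and 1F4. Which windows were called depended on the setting. A ratio of 1.3 gave 10 contacts, all 3 among them, with a median change of −0.30 and 8 of the 10 lower without cohesin. A ratio of 2 gave 0 contacts. Calling in 1F4 alone gave 7, with 1 of the 3 windows among them and a median change of −0.53. Maps without balancing gave 24, with none of the 3 and a median change of 0.0097. Both of the latter callers did have a call at most 2 bins from each of the 3 windows. Measured without balancing, the 3 windows themselves changed by −0.99, −0.80 and −0.76. The strongest joined the bin at 75340801, 12.9 kb upstream of Des, with the bin at 75456001 inside Accn4, 115 kb away. Its observed/expected was 3.23 ± 0.17, 3.23 ± 0.14, 3.00 ± 0.15 and 1.63 ± 0.13, from 452, 609, 471 and 189 reads, a change of −0.88 ± 0.14. The windows of its anchors held no match to the CTCF core pattern, which does not show that they lack CTCF sites.

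The second joined the starts of Chpf and Tmem198 with the gene-free bin at 75590401, also 115 kb apart, at 2.16 ± 0.11, 2.14 ± 0.10, 2.11 ± 0.10 and 1.14 ± 0.08 (−0.89 ± 0.13). The last joined the bin at 75488001 in Obsl1 with the bin at 75545601 in Slc4a3, 57.6 kb apart, at 1.97 ± 0.06, 2.11 ± 0.06, 1.90 ± 0.06 and 1.07 ± 0.04 (−0.83 ± 0.08). At both, the untreated lines were close to each other and the treated library was near the expected value. In both, the window of the upstream anchor held a forward motif, the site in Chpf and the site in the Obsl1 intron, and that of the downstream anchor a reverse motif, the first intergenic site and the Slc4a3 site printed above. These motifs point towards each other. A motif was found in 13.1% of all windows of 3 bins in the captured region and in 16.9% of those of the interval.

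The ring of a window near a minimum takes in pairs that cross the minimum. With the whole ring, window over ring was 1.91, 1.83, 1.8 and 1.17 for the first contact, 1.83, 1.81, 1.78 and 1.41 for the second, and 1.58, 1.57, 1.43 and 1.11 for the contact in Obsl1. With the ring limited to pairs of the same stretch between minima, it was 1.86, 1.73, 1.77 and 1.25, then 1.72, 1.70, 1.69 and 1.46, and 1.47, 1.48, 1.34 and 1.05. The limit thus lowered the ratio of the first and second contact in the untreated lines and raised it in the treated library. The treated library was the lowest at each contact with both rings, and with the limited ring the Obsl1 contact no longer reached 1.5 in any library. With the whole ring the Obsl1 contact was also short of 1.5 in 1B1.

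The same caller applied to 1B1 minus cohesin alone, after its map had been seen, found 3 other windows. One joined the start of Dnajb2 with the starts of Chpf and Tmem198, 243 kb apart and on opposite sides of the Dnpep minimum, at 1.57 ± 0.13, 1.63 ± 0.12, 1.29 ± 0.11 and 2.23 ± 0.17, from 166, 208, 155 and 188 reads. It was 0.79 ± 0.16 higher than in 1B1 and above all 3 untreated lines, which themselves differed by up to 0.34 ± 0.16. Another joined the bin at 75238401 at Dnajb2 and Ptprn with the bin at 75302401 at the end of Dnpep, 64 kb apart, at 1.13, 1.03, 1.18 and 1.42 (0.27 ± 0.10). The last, from Glb1l and Stk16 to 75590401, 384 kb apart, had 0.973, 0.918, 1.10 and 1.16 (0.08 ± 0.25) and was within its counting error of 1B1. The window from Dnajb2 to Chpf and Tmem198 was not particular to the treated map, since its ratio to the surrounding ring was 1.38, 1.52, 1.2 and 1.64 and the caller also found it in 1F4 alone. Since these windows were chosen for being high in the treated library, their values are a description.

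**Figure D3:**
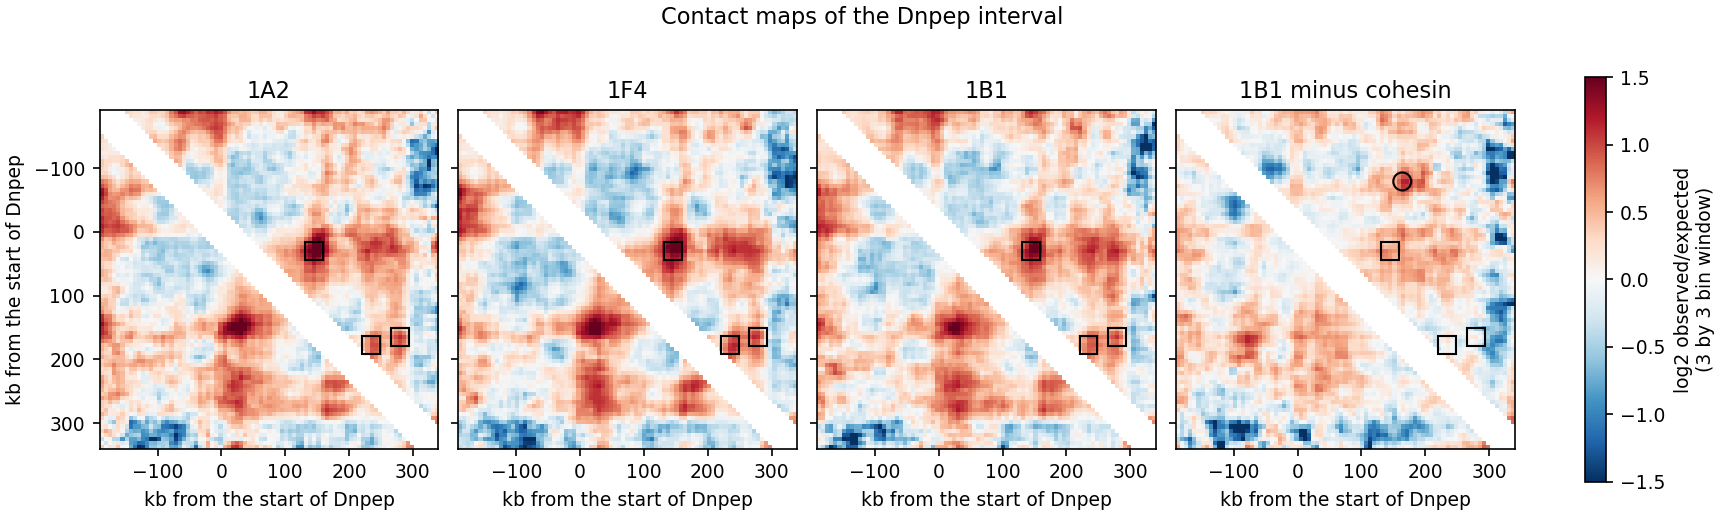
Log2 observed/expected in windows of 3 by 3 bins for the interval in each library, with both axes in kb from the start of Dnpep and windows near the diagonal left blank. Squares mark the 3 focal contacts of 1A2 and 1F4, which fade in 1B1 minus cohesin, and the circle marks the window from Dnajb2 to Chpf and Tmem198, at 2.23 in 1B1 minus cohesin and 1.29 to 1.63 in the untreated lines.

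**Figure D4:**
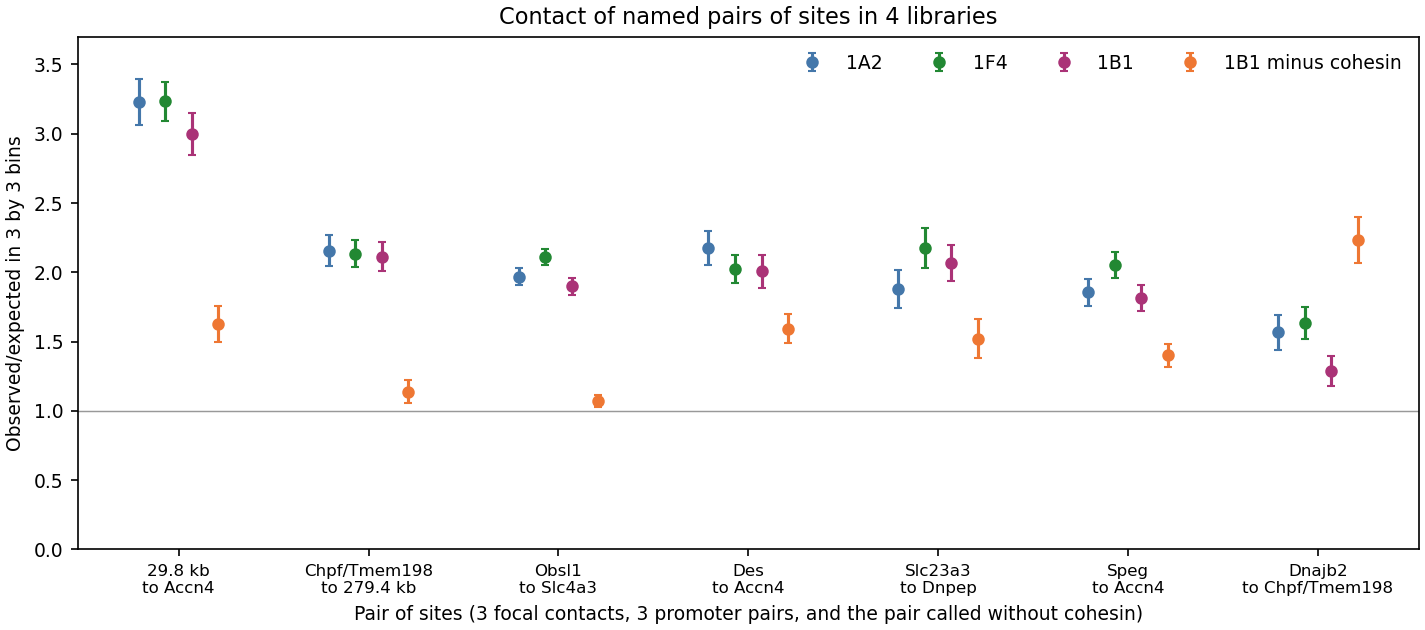
Observed/expected in windows of 3 by 3 bins with counting errors for the 3 focal contacts, the 3 strongest promoter pairs and the window from Dnajb2 to Chpf and Tmem198, in 4 libraries. The treated library is the lowest of the 4 at the first 6 and the highest at the last, and anchors without a gene are given as kb from the start of Dnpep.

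Cut at the 2 minima of 1A2 and 1F4, the interval fell into a stretch from Slc23a3 to Dnpep (30 bins), one from there through Des and Speg to Accn4 (23 bins) and one from Chpf to the end (28 bins). This division was chosen after the minima were known. Contact inside each stretch was lower without cohesin, and contact between the first and the second was higher. Inside the first it was 1.19, 1.2, 1.21 and 1.01 in 1A2, 1F4, 1B1 and 1B1 minus cohesin (−0.27 ± 0.02), inside the second 1.34, 1.39, 1.33 and 1.13 (−0.24 ± 0.02) and inside the last 1.3, 1.3, 1.33 and 1.14 (−0.21 ± 0.02). The last stretch holds the pair that stood apart, and with that pair set to the mean of its separation it had 1.23, 1.23, 1.25 and 1.07 (−0.22 ± 0.02). Between the first and the second stretch, across Dnpep, it was 0.909, 0.871, 0.924 and 1.02 (0.14 ± 0.02). Only this pair of stretches was below the expected value in the untreated lines. Between the second and the last, across the Accn4 and Chpf minimum, contact was 1.17, 1.14, 1.21 and 1.07 (−0.18 ± 0.02), and between the first and the last 1.13, 1.01, 1.09 and 1.10 (0.00 ± 0.03). Contact was thus more even over the stretches without cohesin.

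Contact fell off more steeply with separation without cohesin, as it did upstream. On logarithmic axes (log10), mean contact between 19.2 and 384 kb declined with slopes equal to −0.87 ± 0.01, −0.93 ± 0.01, −0.83 ± 0.01 and −1.06 ± 0.01 in 1A2, 1F4, 1B1 and 1B1 minus cohesin, and −0.88, −0.90, −0.85 and −1.09 in the rest of the captured region. The change from 1B1 to 1B1 minus cohesin was −0.22 ± 0.01 in the interval and −0.24 upstream (counting error 0.0037), and untreated lines differed by −0.06 to 0.09. The treated slope was thus steeper than every untreated one, by more than these differ.

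After scaling maps to the same sum over the captured region, the log2 ratio of contact in 1B1 minus cohesin to 1B1 was 0.41 ± 0.01 in the band of 12.8 to 25.6 kb and 0.15 ± 0.02 in the band of 32 to 51.2 kb. At longer separations it was below 0, with −0.18 ± 0.02 for 57.6 to 102.4 kb, −0.44 ± 0.02 for 108.8 to 204.8 kb and −0.56 ± 0.02 for the last band, which ends at 409.6 kb. Upstream the same bands changed by 0.54, 0.28, 0.02, −0.25 and −0.45. The interval was therefore lower than the rest in every band of the treated comparison, by 0.11 to 0.20, with counting errors of 0.01 to 0.02. Between untreated lines this difference reached 0.09 in size in the last band (1B1 over 1F4), close to the 0.11 of the treated comparison there, and was at most 0.05 in the other bands. In 1A2 the interval had more contact than the rest in every band, by 0.25, 0.22, 0.25, 0.40 and 0.38. In 1F4 it was 0.28, 0.22, 0.26, 0.36 and 0.30, and in 1B1 it was 0.27, 0.23, 0.30, 0.39 and 0.39. In 1B1 minus cohesin it was 0.14, 0.09, 0.10, 0.21 and 0.28. In the last band the treated value (± 0.018) was thus within counting error of 1F4 (± 0.015). The first band holds the pair that stood apart. The sign of the band of 32 to 51.2 kb depends on the scaling, and on the deposited scale it was −0.12. The other bands kept their sign on that scale but changed in size, to 0.14, −0.45, −0.70 and −0.83.

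**Figure D5:**
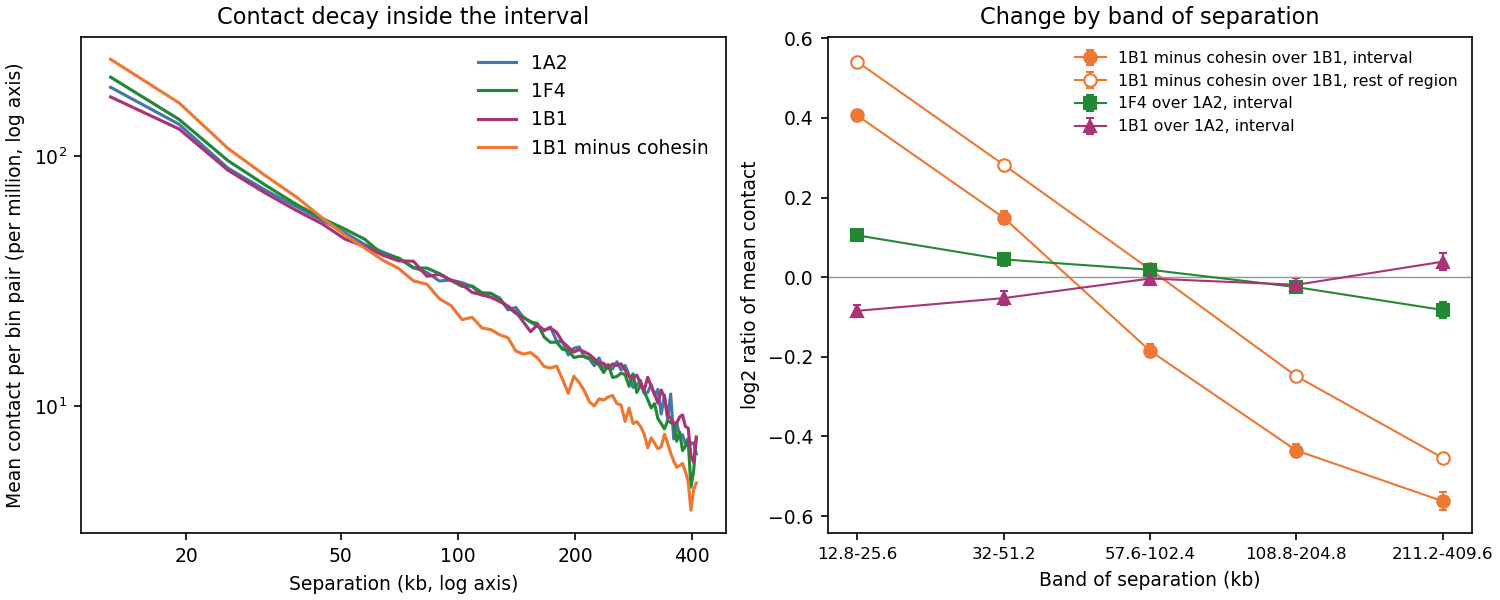
Left, mean contact per bin pair (scaled to 1000000, log axis) against separation in kb (log axis) inside the interval in 4 libraries; right, log2 ratio of mean contact between libraries in 5 bands of separation, with counting errors, in the interval (filled) and in the rest of the captured region (open). The treated library is above 1B1 below 51.2 kb and below it from 57.6 kb on in the interval, while 1F4 and 1B1 stay within 0.11 of 1A2.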

How the data were processed

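Tiled Capture-C maps of 4 libraries, 1 per group of the sample labels, were analysed in the 558 bins captured on chromosome 1. The methods name capture targets on chromosome 15 only and do not describe this region, which is called captured here because the deposited maps cover it. The authors cut with MboI, mapped reads with HiC-Pro 2.11.4 to mm9, kept unique valid pairs within the targets, counted them in bins of 6.4 kb and balanced the maps with ICE (iterative correction). The deposited values are a balanced contact signal that sums to between 14999992 and 15000019 in every library, so they carry no depth. The reads behind them were recovered by solving 1 factor per bin, after which 100% of values lay within 0.05 of a whole read, the largest distance being 0.00862 reads. The map totals were 3214144 (1A2), 4089968 (1F4), 3234581 (1B1) and 3622612 (1B1 minus cohesin) read pairs. Reads carried no molecular identifiers, so errors cover counting error only. Across the region 6 bins without a value in at least 1 library were left out.

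Computation used Python 3.11.15 with NumPy 2.4.6, and genes came from GENCODE vM1. Each caller was tested on simulated maps. Named sites were Dnpep with its 5 strongest partners, each minimum, up to 5 focal contacts, the 3 promoter bins with the largest rise and fall, and the 3 strongest promoter pairs. Sites outside this rule were picked once their values were known. Members and lists were chosen with earlier results of these data known. Alternatives varied square size, expected value, balancing, scaling, range, callers and the end of the interval. Balancing forces equal sums per bin, and bins at the end of the captured region lack partners downstream.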

Additional observations from a re-analysis of the deposited data

How the results depend on the processing

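Each group had 1 library, so no setting could leave out a replicate. No paired analysis was possible because each group had 1 library. Of 115 alternative values for the main results, 77 moved by no more than the largest difference between untreated lines (counts by no more than 1.5 times). The depth, a median of 13 to 18 reads per bin pair at 19.2 kb or more, limits statements to sums over many pairs, and single windows carry errors of 0.08 to 0.25.

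The median insulation change, −0.17 over all bins and over promoter bins, was −0.11 over all bins with squares of 5 bins, −0.057 over all bins and −0.058 over promoter bins without balancing, and −0.25 over the bins with starts of all annotated genes. The changes at Dnpep (0.15 to 0.36), at Stk11ip (−0.71 to −0.57) and at the minimum in Ptprn (−0.30 to −0.21) kept their sign under every setting run for them, but with squares of 5 bins that at Dnpep was under 0.2. The 29 falls and 9 rises became 18 and 15 without balancing, and the rises became 15 against 1F4 and 5 with squares of 5 bins. Among promoter bins the 7 falls became 4 with squares of 15 bins, and the 1 rise became 3 against 1F4 and 2 without balancing. Squares of 5 bins gave 4 minima in 1A2 and 1F4 in place of 2. The 4 minima of 1B1 minus cohesin became 1 with squares of 15 bins, the one inside Ptprn, and 2 with a depth of 0.4, those inside Ptprn and at Chpf, so that the minima at Dnpep and Stk11ip were lost in both. The bands from 12.8 to 409.6 kb changed by 0.14, −0.12, −0.45, −0.70 and −0.83 on the deposited scale, where the second reversed. Without balancing the last 4 bands were 0.25, −0.11, −0.30 and −0.37, and without the last 10 bins of the interval the bands of 57.6 to 102.4 and 108.8 to 204.8 kb were −0.21 and −0.41.

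A window over ring ratio of 1.3 gave 10 focal contacts with a median change of −0.30, a ratio of 2 gave 0 and so no median, calling in 1F4 alone gave 7 with −0.53, 1 of them among the 3, and reads without balancing gave 24 with 0.0097, none of them among the 3. The 3 windows called in 1B1 minus cohesin alone had 0.27, a change of the opposite sign in windows chosen from that library. Map similarity between 32 and 128 kb was 0.961 (1A2 and 1F4), 0.951 (1A2 and 1B1), 0.962 (1F4 and 1B1), 0.547 (1A2 and 1B1 minus cohesin) and 0.523 (1F4 and 1B1 minus cohesin). The alternatives without balancing for minima, bands and focal contacts, those called in 1B1 minus cohesin, those at single bins and for counts of bins that rose or fell, the loss of the last 10 bins for insulation and bands, and the removal of the pair that stood apart were chosen after seeing the data. That removal changed no count of minima or focal contacts. The cause of the shifts between settings was not tested.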
